A study of Mus musculus with 18 samples.

Results

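Glycolysis genes were followed on each parental allele of mouse CD23+ B cells before and after 24 h with CpG. The 10 genes were chosen by name, with earlier results of these data known, so the counts of members below are descriptions. They are the glucose transporter Slc2a1 and 9 enzymes, Hk2, Pfkp, Aldoa, Tpi1, Pgk1, Pgam1, Eno1, Pkm and Ldha. A row with the gene's name was present for 9 of the 10 in the tables counted on the 129S1/SvImJ annotation (40327 rows) and for 8 in the tables counted on the CAST/EiJ annotation (39147 rows). No row of either annotation was named Pgk1, and none of the CAST/EiJ annotation was named Eno1, so 8 members were compared between the alleles.

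Splenic CD23+ B cells, a population of mature B cells, came from female F1 129S1/Cast mice of the genotype Xist+/-. All samples shared that genotype, and the labels state that X inactivation is skewed so that the Cast X is the inactive one in every cell. The 129 reads of an X-linked gene therefore come from the active X and the Cast reads from the inactive X. The naive group (3 samples) had no treatment and the stimulated group (3 samples) was cultured for 24 h with CpG at 1 µM, short DNA sensed by the endosomal receptor Tlr9. No group used here was cultured without CpG, so changes with CpG and with 24 h in culture cannot be told apart. Each sample had a count table per allele, with 1987266 to 2928236 reads in genes for 129 and 2465073 to 3321753 for Cast. The labels do not say whether replicates are separate animals, so p-values measure the spread between these samples, which may be technical in part. Some allele shares differed between replicate numbers alike in both groups, as given below, and the source of this was not tested. The series has 18 samples, and the other 12 were not analysed here.

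Glycolysis converts glucose to pyruvate in the cytosol, and lymphocytes leaving rest are known to take up more glucose and to release much of it as lactate. Glucose enters through carriers such as Slc2a1, is phosphorylated by hexokinase and committed by phosphofructokinase, and is then split by aldolase. The lower enzymes, from triosephosphate isomerase to pyruvate kinase, yield ATP and pyruvate, and lactate dehydrogenase turns pyruvate into lactate while restoring NAD+. Many of these genes are known targets of Myc and of the hypoxia-inducible factors, whose sites share a short core.

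Promoters of 4 members are shown, each as the 250 bases before the most upstream start in RefSeq (GRCm38.p6), because these genes are the ones the results turn on: the carrier, the enzyme with the highest fold, the X-linked gene and the last enzyme. They are those of the C57BL/6J reference, not of the 129 or Cast genomes. Capitals mark 3 short motifs on either strand. The E-box bound by Myc is written CACGTG here. The core bound by the hypoxia-inducible factors was searched in its form with A in front, written ACGTG, and this form was also counted inside the E-box. The form of the core with G in front is written GCGTG.
Slc2a1 (chr4:119108495-119108744, plus strand): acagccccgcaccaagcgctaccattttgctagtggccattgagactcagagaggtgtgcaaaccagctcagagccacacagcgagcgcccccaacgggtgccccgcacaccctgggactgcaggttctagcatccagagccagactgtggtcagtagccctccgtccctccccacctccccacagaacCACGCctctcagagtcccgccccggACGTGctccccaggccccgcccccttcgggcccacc
Hk2 (chr6:82774455-82774704, minus strand): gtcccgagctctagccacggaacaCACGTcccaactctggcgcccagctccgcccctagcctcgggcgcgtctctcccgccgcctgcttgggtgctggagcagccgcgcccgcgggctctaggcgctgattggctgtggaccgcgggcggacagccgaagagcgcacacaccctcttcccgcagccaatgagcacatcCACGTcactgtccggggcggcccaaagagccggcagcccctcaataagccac
Pgk1 (chrX:106186850-106187099, plus strand): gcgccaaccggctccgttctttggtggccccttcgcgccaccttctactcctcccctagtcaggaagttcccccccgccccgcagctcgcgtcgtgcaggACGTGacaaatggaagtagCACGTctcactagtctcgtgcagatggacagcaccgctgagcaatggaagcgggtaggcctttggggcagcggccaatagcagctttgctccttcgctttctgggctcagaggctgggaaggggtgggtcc
Ldha (chr7:46845554-46845803, plus strand): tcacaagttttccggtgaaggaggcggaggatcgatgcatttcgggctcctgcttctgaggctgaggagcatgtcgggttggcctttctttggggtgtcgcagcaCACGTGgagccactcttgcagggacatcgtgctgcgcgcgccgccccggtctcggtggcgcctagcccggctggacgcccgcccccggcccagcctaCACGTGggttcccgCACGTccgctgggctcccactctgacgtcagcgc
Among the 10 members, the E-box was found in 1 promoter (Ldha, 2 matches), against 6.04% of 27025 promoters of the same length. The core with A was found in 5 promoters (Slc2a1, Hk2, Pgk1, Pgam1 and Ldha), against 16.5% of all promoters, and the core with G in 4 (Slc2a1, Pfkp, Pgam1 and Eno1), against 28.3%. Either core was present in 7 of 10, against 38.6%, and in none of the windows of Aldoa, Tpi1 and Pkm. A match describes the letters in these windows and no more, and a link between matches and the response to CpG was not tested.

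Every member with a row of its own name except Slc2a1 rose after CpG on the allele or alleles where it was named. On the 129 allele, 8 of 9 members were called higher and none lower (edgeR quasi-likelihood test, Benjamini-Hochberg adjusted p under 0.05), where 55.2% of all 10581 tested genes were called and 28.2% were called higher. On the Cast allele, 7 of 8 were called higher and none lower, where 62.2% of 10365 tested genes were called and 30.7% were called higher. The naive and stimulated samples did not overlap for the same 8 and 7 members, against 32.6% and 33.7% of tested genes that were higher without overlap (64.8% and 68.5% in either direction). All named members passed the filter on low counts. The median log2 fold change of the members was 2.61 on 129 and 2.49 on Cast, against -0.01 and -0.04 over all tested genes.

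**Figure D1:**
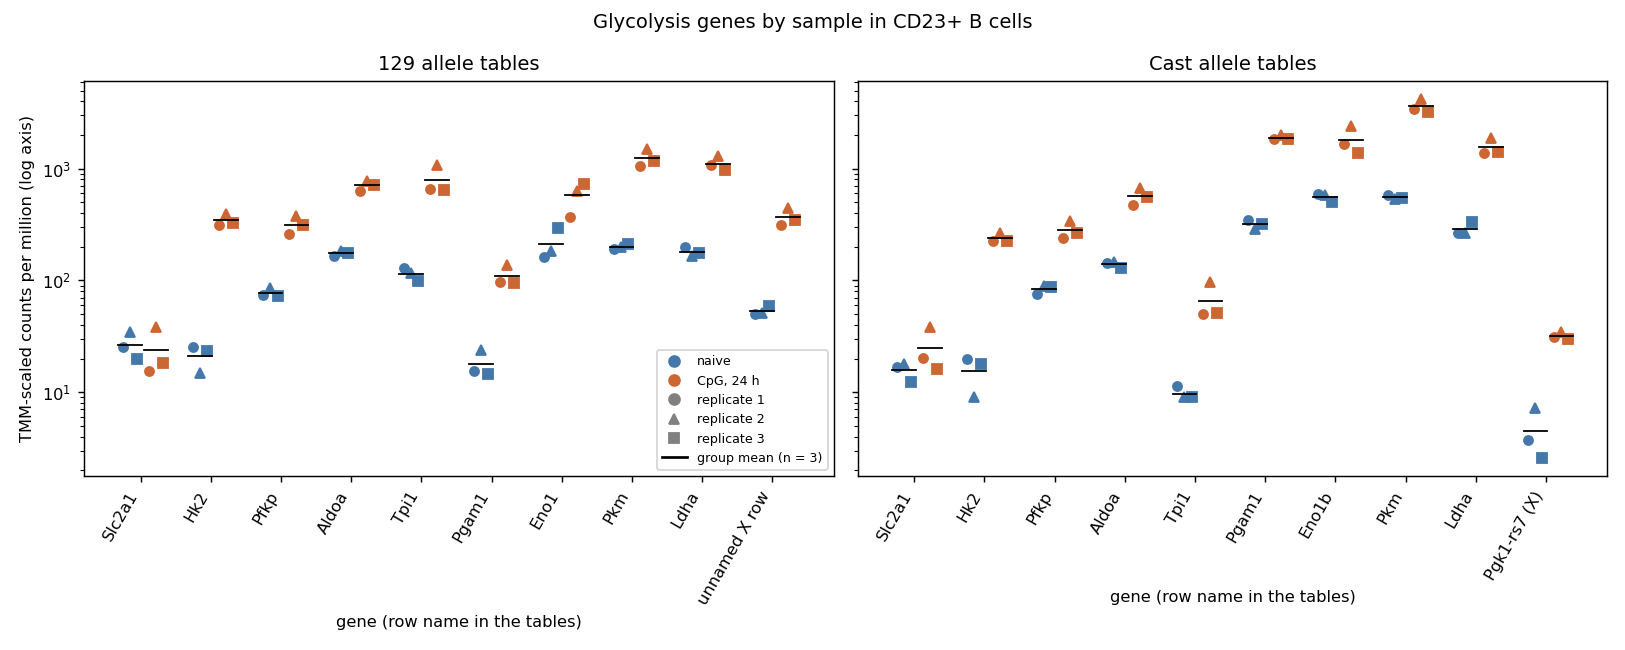
TMM-scaled read counts (CPM, log axis) of each glycolysis row in every sample, naive in blue and CpG 24 h in orange, with marker shapes for replicates and black lines for group means (n = 3), in the 129 tables (left) and the Cast tables (right). Stimulated samples lie above all naive samples except for Slc2a1, and stimulated replicate 2 is the highest of its group for 7 of the 8 members that rose on 129 and for 7 of 7 on Cast.

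Values below are CPM after TMM scaling, within the tables of 1 allele. They are not scaled to transcript length, so levels were compared between samples and not between genes. CPM from the 129 and Cast tables have different totals, and alleles were compared by their reads in the same sample instead.

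The glucose carrier Slc2a1 (chromosome 4) was the member that did not pass. On 129 it had 25.2, 34.2 and 19.9 CPM in naive replicates 1 to 3 and 15.4, 38.4 and 18.4 in the stimulated ones, a log2 fold change (stimulated over naive, called log2 fold below) of -0.14 (SE 0.39, edgeR adjusted p = 0.778). On Cast the values were 16.9, 17.9 and 12.4 CPM against 20.4, 38.6 and 16.2, a log2 fold of 0.66 (SE 0.34, edgeR adjusted p = 0.119). Stimulated replicate 2 was the highest of the 6 samples on both alleles, and the groups overlapped on both. With the replicate number as a block the Cast value passed (0.62, edgeR adjusted p = 0.0408), as it did without stimulated replicate 3 (0.92, edgeR adjusted p = 0.0386) and with no filter on low counts (0.73, edgeR adjusted p = 0.0386). These levels rest on 29 to 126 reads per sample and allele.

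Hexokinase 2 (Hk2, chromosome 6), which traps glucose in the cell as glucose 6-phosphate, had the highest fold among the members. Its 129 reads gave 25.2, 14.9 and 23.4 CPM in naive and 315, 396 and 327 CPM in stimulated samples. That is a log2 fold of 4.03 (SE 0.22, edgeR adjusted p = 1.66e-05), or 16.4-fold. Its Cast reads gave 19.9, 8.97 and 17.9 CPM against 226, 265 and 224, a log2 fold of 3.94 (SE 0.25, edgeR adjusted p = 2.36e-06), or 15.3-fold. Naive replicate 2 was the lowest and stimulated replicate 2 the highest sample on both alleles.

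Pfkp (chromosome 13) encodes the platelet-type phosphofructokinase, which carries out the committing step. On 129 it rose from 73.9, 85.0 and 72.2 CPM to 260, 373 and 316 CPM, a log2 fold of 2.04 (SE 0.16, edgeR adjusted p = 5.1e-05). On Cast it rose from 75.7, 90.0 and 88.0 CPM to 238, 340 and 266 CPM, a log2 fold of 1.73 (SE 0.16, edgeR adjusted p = 1.6e-05), the lowest among the 7 that rose on that allele. The lowest stimulated value was far above the highest naive value on each allele.

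Aldolase A (Aldoa, chromosome 7), which splits the sugar into triose phosphates, rose on both alleles. It rose from 165, 182 and 176 CPM to 638, 779 and 721 CPM on 129, a log2 fold of 2.03 (SE 0.12). The Cast values were 145, 145 and 129 CPM against 472, 667 and 563, a log2 fold of 2.02 (SE 0.15). Triosephosphate isomerase (Tpi1, chromosome 6), which interconverts the trioses, rose from 130, 116 and 98.1 CPM to 653, 1083 and 650 CPM on 129 (2.79, SE 0.24). On Cast Tpi1 rose from 11.2, 8.97 and 8.97 CPM to 50.1, 96.6 and 51.2 (log2 fold change 2.75, SE 0.31), with 21 to 30 reads per naive sample. Stimulated replicate 2 stood above the other stimulated samples for Tpi1 on both alleles.

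Phosphoglycerate mutase 1 (Pgam1, chromosome 19), a lower glycolytic enzyme, rose from 15.4, 23.9 and 14.4 CPM to 97.5, 136 and 95.3 CPM on 129, a log2 fold of 2.61 (SE 0.25). Its Cast reads, which were far more numerous, went from 346, 288 and 319 CPM to 1829, 1983 and 1832 CPM, a log2 fold of 2.57 (SE 0.13). Enolase 1 (Eno1, chromosome 4), which forms phosphoenolpyruvate, had the smallest fold among the 8 that rose on 129. It went from 164, 183 and 292 CPM to 369, 634 and 734 CPM, a log2 fold of 1.44 (SE 0.33, edgeR adjusted p = 0.00925), or 2.72-fold. Replicate 3 was the highest Eno1 sample of each group, and its highest value over its lowest within each group was larger than for the other members that rose on 129. Against a minimum log2 fold change of 1 the call of Eno1 was lost (edgeR adjusted p = 0.127).

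Muscle pyruvate kinase (Pkm, chromosome 9), which makes pyruvate and ATP, rose from 190, 198 and 212 CPM to 1064, 1493 and 1166 CPM on 129 (log2 fold change 2.63, SE 0.16). On Cast it rose from 585, 530 and 550 CPM to 3406, 4202 and 3228 CPM (log2 fold change 2.70, SE 0.15). The counts are per gene, so the spliced forms of Pkm were not told apart. Lactate dehydrogenase A (Ldha, chromosome 7) rose from 199, 165 and 175 CPM to 1069, 1285 and 982 CPM on 129, a log2 fold of 2.63 (SE 0.15). Its Cast values were 267, 268 and 334 CPM against 1376, 1869 and 1404, a log2 fold of 2.42 (SE 0.17). The highest edgeR adjusted p among the 7 members that rose on Cast was 5.64e-05.

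**Figure D2:**
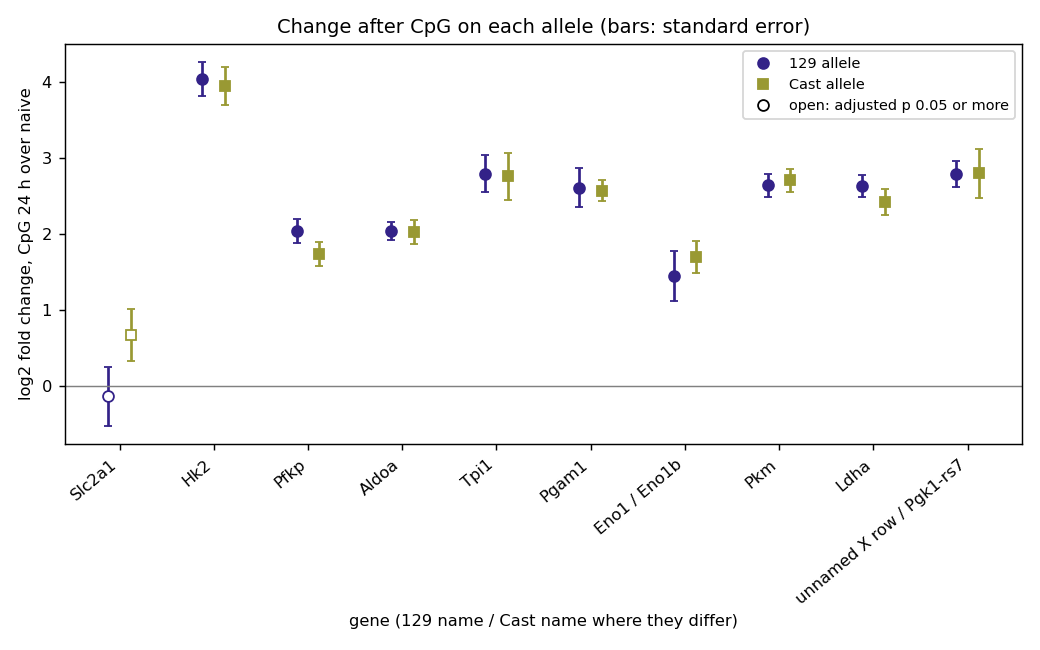
Log2 fold change (CpG 24 h over naive) of each glycolysis row on the 129 allele (circles) and the Cast allele (squares) with standard errors, filled where the edgeR adjusted p was under 0.05. Hk2 is highest on both alleles at 4.03 and 3.94, and Slc2a1 is open on both at -0.14 and 0.66.

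RNA of other cells moved with the stimulation in the same libraries. The macrophage marker list summed to 3686 to 7413 CPM in naive and 24.9 to 35.2 CPM in stimulated samples of the 129 tables, and to 2903 to 6052 and 21.1 to 31.4 CPM of the Cast tables. On each allele 14 of the 15 macrophage markers with a row were lower without overlap. Marker sums in this paragraph were scaled to total gene reads without TMM, and overlap of markers was judged on read counts. Fcna and Cd163 on 129, and Fcna, Mertk, C1qa and Axl on Cast, were at 0 in every stimulated sample. The B cell marker list stayed the larger one, at 9064 to 11435 CPM in naive and 3168 to 3828 CPM in stimulated samples on 129, with 7 of its 8 genes lower without overlap. The T cell, neutrophil, erythroid, dendritic and natural killer lists each summed to at most 109 CPM in any sample. Only 2 of the 6 erythroid genes had a row on each allele, so that sum leaves out most of its list. The part of these other cells in the changes of the glycolysis genes was not tested. In bulk RNA, a change in the share of cells and a change in RNA per cell cannot be told apart.

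Pgk1, phosphoglycerate kinase 1, is the X-linked step of the pathway, and its allelic output could not be read under its own name. In RefSeq (GRCm38.p6) Pgk1 lies between Tlr13 and Taf9b on the X chromosome. In identifier order each annotation has 1 row between Tlr13 and Taf9b: an unnamed row in 129 (MGP_129S1SvImJ_G0036004) and a row named Pgk1-rs7 in Cast (MGP_CASTEiJ_G0034967). RefSeq lists Pgk1-rs7 as a pseudogene on another chromosome. The rows are given under their own labels and were not taken for Pgk1, and they were chosen after the names had been looked up.

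The unnamed 129 row of the X chromosome, on the active X, had 50.4, 51.2 and 59.3 CPM in naive and 312, 447 and 349 CPM in stimulated samples. Its log2 fold change was 2.79 (SE 0.17, edgeR adjusted p = 1.97e-05). The Cast row Pgk1-rs7, on the inactive X, had 3.75, 7.17 and 2.56 CPM against 31.3, 34.3 and 30.01, a log2 fold of 2.79 (SE 0.33, edgeR adjusted p = 7.1e-05). Both rows rose without overlap, and the difference between their changes was 0.06 on the log2 scale (Cast minus 129, edgeR adjusted p = 1).

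In reads, the Cast row had 10, 20 and 6 in naive and 100, 112 and 102 in stimulated samples, beside 118, 124 and 119 and then 875, 1269 and 1008 reads of the 129 row. The Cast share, which is Cast reads over the sum of both, was 7.81%, 13.9% and 4.8% in the naive samples, with 95% Wilson intervals of 4.30 to 13.8%, 9.17 to 20.5% and 2.22 to 10.1%. It was 10.3%, 8.11% and 9.19% in the stimulated samples, with intervals of 8.51 to 12.3%, 6.78 to 9.67% and 7.63 to 11.03%. The means, 8.83% ± 4.63 and 9.19% ± 1.07 (SD, n = 3), differed by 0.35 percentage points (two-sided exact permutation p = 0.9). The naive samples enclosed all 3 stimulated samples. Without naive replicate 2 the difference was 2.88 points and without naive replicate 3 it was -1.67 points. Intervals and shares cover counting error only, since reads from amplified libraries are not independent molecules. How reads were assigned to the alleles, or shared with copies elsewhere in the genome, is not given in the sources used here. Whether all reads of the Cast row come from the inactive X was not tested, so this share is uncertain.

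The 6 matched genes nearest that place on the X chromosome, with 10 or more summed reads in every sample, were compared with it. Atrx had a higher mean Cast share than the pair of rows in both groups, and the other 5 had lower means. By sample, Magt1 was above the rows in naive replicates 1 and 3 (8.08% and 8.91%). Taf9b (8.77%) and Gpr174 (7.59%) were above them in naive replicate 3. The median over the 20 matched genes around it was 2.61%, 2.98% and 4.47% in naive and 3.62%, 3.93% and 3.41% in stimulated samples, below the share of the rows in every sample. Atrx, a chromatin remodeller, had the highest among them at 23.5% ± 2.17 in naive and 23.7% ± 0.979 in stimulated samples (SD, n = 3). Magt1, a magnesium transporter, was at 7.69% ± 1.47 and 8.44% ± 1.85. Gpr174 had 6.39% ± 1.09 and 6.08% ± 1.44, Taf9b 4.79% ± 4.44 and 3.42% ± 1.87, and P2ry10 2.64% ± 0.377 and 2.26% ± 0.324. Atp7a, a copper transporter, was the neighbour whose groups did not overlap, at 2.84% ± 0.422 in naive and 0.476% ± 0.825 in stimulated samples (exact permutation p = 0.1, and no smaller p is possible with groups of 3). Summed over all X-linked genes without Xist, the share was 6.60% before and 9.23% after CpG, higher by 2.63 points without overlap (exact permutation p = 0.1), beside 0.35 points for the rows. The difference between these 2 changes was not tested.

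On chromosome 4 the row between Car6 and Rere is named Eno1 in 129 and Eno1b in Cast (MGP_CASTEiJ_G0028268). Eno1b had 597, 579 and 506 CPM in naive and 1652, 2427 and 1375 CPM in stimulated samples, a log2 fold of 1.70 (SE 0.21, edgeR adjusted p = 0.000106). Set side by side, the Cast share of the pair was 80.6%, 78.4% and 66.9% in naive and 83.6%, 81.5% and 68.8% in stimulated samples. Replicate 3 was the lowest in both groups, by more than the Wilson intervals. The group means were 75.3% and 78.0% (exact permutation p = 0.5), in a test that takes no account of the replicate numbers. Within each replicate number the share was higher in the stimulated sample. The difference between the changes of the rows was 0.23 on the log2 scale (Cast minus 129, edgeR adjusted p = 0.976, or 0.0979 with the replicate block).

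The 20 matched genes around that place, 10 on each side in identifier order each with 30 or more summed reads per sample, were likewise lowest in replicate 3. Their median Cast share was 62.0%, 63.8% and 51.5% in naive and 60.9%, 60.9% and 49.98% in stimulated replicates 1 to 3. Around 6 of the 8 matched members, Hk2, Pfkp, Aldoa, Tpi1, Pgam1 and Pkm, the medians ranged from 48.2% to 55.5% over all samples. The neighbours of Slc2a1 were higher in replicate 1, at 57.1% and 55.2%, than in the others (44.9% to 49.5%). Those of Ldha were lower in replicate 1, at 51.5% and 49.6%, than in the others (56.2% to 57.9%). This comparison was added after the values were seen.

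**Figure D3:**
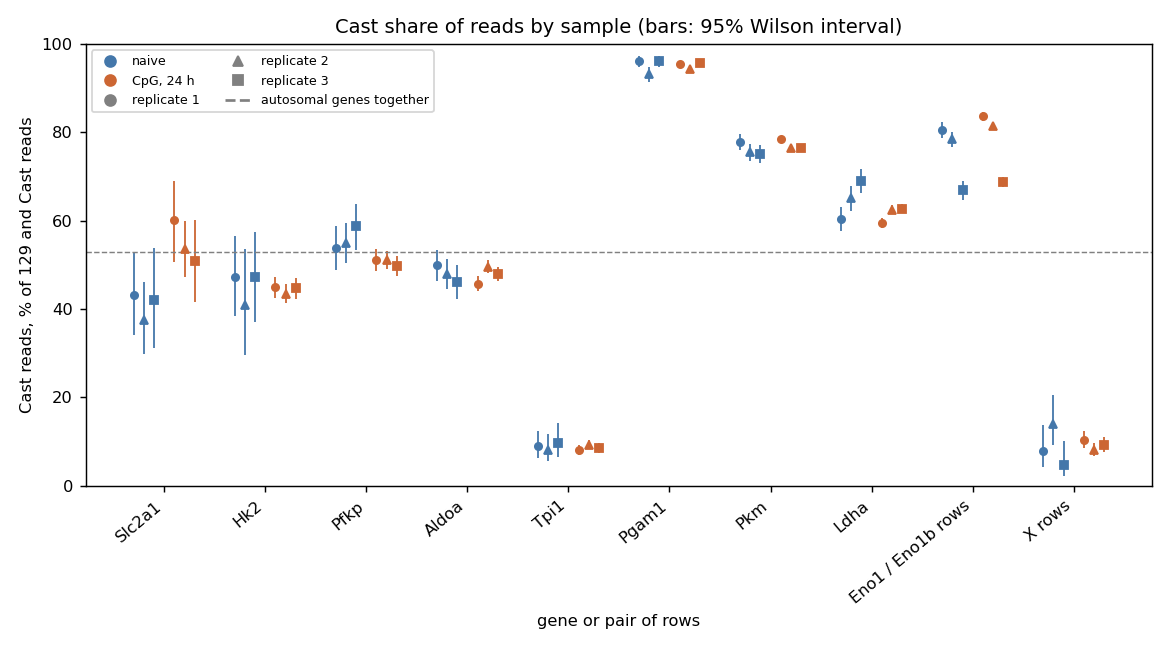
Cast reads as a percentage of 129 and Cast reads of each gene or pair of rows in every sample, naive in blue and CpG 24 h in orange, with marker shapes for replicates and bars for 95% Wilson intervals; the dashed line is the share of all matched autosomal genes together. Tpi1 lies near 9% and Pgam1 near 95% in all 6 samples, the X rows lie between 4.8% and 13.9%, and replicate 3 of the Eno1 and Eno1b rows lies below replicates 1 and 2 in both groups.

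No matched member was called as changing differently on the 129 and Cast alleles. In the test of allele by stimulation over 10364 matched genes, 0 of the 8 matched members were called, where 95 genes (0.917%) were called (edgeR, adjusted p under 0.05). Of the 8, Slc2a1 and Pfkp had an unadjusted p under 0.05. With the replicate block 779 genes (7.52%) were called and again 0 of the 8 members, and Ldha joined Slc2a1 and Pfkp at an unadjusted p under 0.05. The difference for Slc2a1 was 0.81 on the log2 scale (Cast minus 129, SE 0.26, edgeR adjusted p = 0.273, or 0.0833 with the replicate block), and that for Pfkp was -0.30 (SE 0.11, edgeR adjusted p = 0.352). The differences of the other 6 were between -0.21 (Ldha) and 0.08 (Pkm).

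As shares of reads, Slc2a1 had 43.3%, 37.6% and 42.0% Cast in naive and 60.2%, 53.6% and 50.9% in stimulated samples. The mean rose from 41.0% ± 2.98 to 54.9% ± 4.76 (SD, n = 3) with no overlap, at an exact permutation p of 0.1, the smallest possible here (0.4 adjusted over the 8 members). Pfkp went from 53.9%, 54.9% and 58.7% to 51.0%, 51.1% and 49.8%, also with no overlap (exact permutation p = 0.1, adjusted 0.4). The other 6 overlapped between groups, and their mean shares differed by -3.26 to 0.95 points (stimulated minus naive). The background share of all matched autosomal genes was 52.7% ± 0.793 in naive and 52.9% ± 0.812 in stimulated samples.

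In both groups, 2 members had Cast shares outside the 5th to 95th percentiles of autosomal genes, 34.6% to 78.0%. Tpi1 was at 8.91% ± 0.746 in naive and 8.61% ± 0.630 in stimulated samples, and its mean was lower than that of 99.2% of 7784 autosomal genes that had 20 or more reads per sample. Pgam1 was at 95.3% ± 1.73 and 95.2% ± 0.759, higher than 99.2% of those genes. Inside that range, Pkm was at 76.2% ± 1.45 and 77.1% ± 1.18, higher than 94.4% of them. Ldha was at 64.8% ± 4.28 and 61.6% ± 1.85, higher than 83.7% of them, Hk2 at 45.2% and 44.3%, and Aldoa at 47.9% and 47.7%. Glycolysis genes such as Tpi1, Pgam1, Eno1, Ldha, Pkm, Aldoa and Gapdh have processed copies elsewhere in the mouse genome. How reads shared with such copies were assigned is not given in the sources used here, so these shares and levels are uncertain.

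Other carbohydrate genes, 77 in 6 lists, were read from the same fits. On 129, 60 were tested, of which 32 passed as higher and 9 as lower. On Cast, 54 were tested, of which 30 passed as higher and 8 as lower. Over all tested genes, 28.2% were called higher and 27.0% lower on 129, and 30.7% and 31.5% on Cast, and the counts of each list below are to be read against these shares. Their median log2 change was 0.70 on 129 and 0.76 on Cast. These lists were chosen with earlier results of these data known, and their counts are descriptions.

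**Figure D4:**
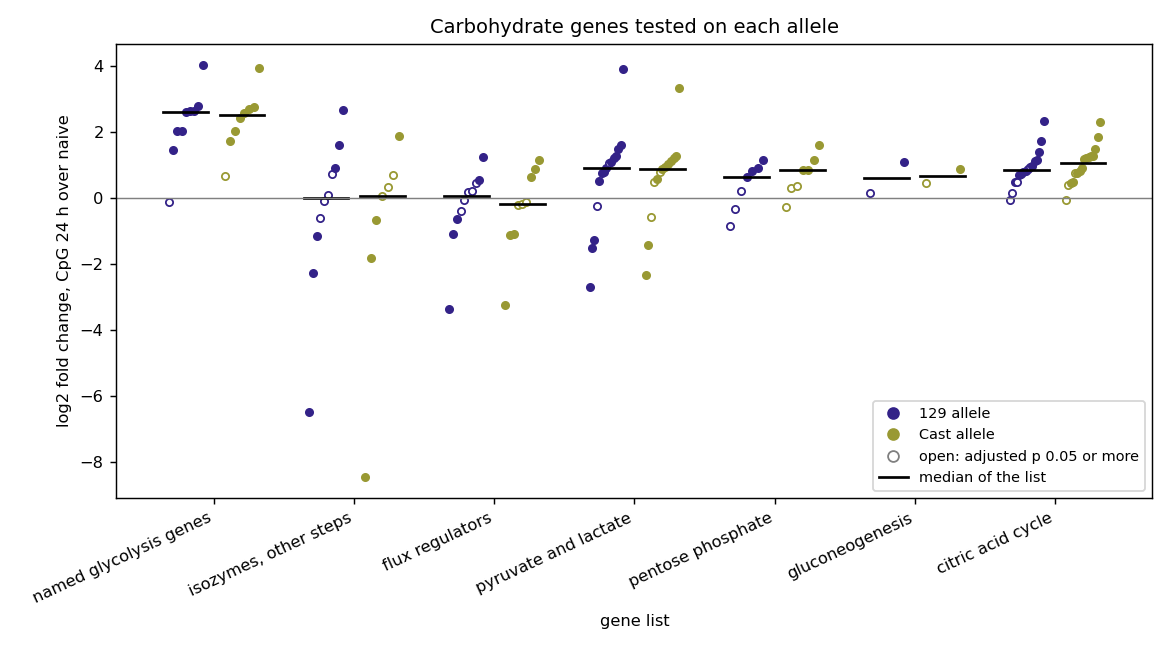
Log2 fold change (CpG 24 h over naive) of every tested gene of 7 lists on the 129 allele (dark) and the Cast allele (olive), filled where the edgeR adjusted p was under 0.05, with black lines for the median of each list. The named glycolysis genes have the highest medians, 2.61 and 2.49, and the 2 points below -6 are Hk3, whose fitted values depend on stimulated counts of 0 or 1 read.

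Among isozymes and other steps of glycolysis, 3 of 10 tested genes were higher and 3 lower on 129, and 1 of 7 was higher and 3 lower on Cast. These counts on 129 are near the shares over all tested genes (28.2% higher and 27.0% lower). Gapdh, the dehydrogenase that follows Tpi1, had a row in 129 only, where it rose from 202, 165 and 164 CPM to 1259, 973 and 1113 CPM (log2 fold change 2.66, SE 0.15). Gpi1, the isomerase after hexokinase, also had a row in 129 only and rose from 260, 261 and 263 CPM to 437, 558 and 479 CPM (0.91, SE 0.12). The liver-type phosphofructokinase Pfkl rose by 1.59 on 129 and 1.88 on Cast (log2 scale), from 88.1 to 105 CPM to 230 to 376 CPM on 129. Of the 3 phosphofructokinase genes, Pfkm, the muscle type, had 1.99 to 8.89 CPM in all samples and alleles and did not pass on either.

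Slc2a3, a glucose carrier, fell by 1.15 on 129 (SE 0.26, edgeR adjusted p = 0.00778), from 57.7, 42.9 and 60.7 CPM to 16.8, 31.3 and 24.6 CPM. On Cast its log2 fold change was -0.66 (SE 0.24, edgeR adjusted p = 0.0378), and that call was lost without naive replicate 2 or 3 or stimulated replicate 1 or 3, at -0.49 to -0.65, and with no filter on low counts (-0.59). Hexokinase 1 (Hk1) did not pass, with 53.3 to 77.6 CPM in naive and 59.98 to 92.2 CPM in stimulated samples on 129 and log2 fold changes of 0.10 and 0.04 on the 2 alleles. Hexokinase 3 (Hk3), known from myeloid cells, had 32, 51 and 19 reads in naive and 1, 0 and 0 in stimulated samples on 129. On Cast it had 53, 29 and 34 reads in naive and 0 in every stimulated sample, so that it was at least 16.3-fold lower, against a floor of 3 reads per library. Hk3 moved with the macrophage markers given above, and their part in its fall was not tested.

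Aldoc, the brain aldolase, fell on Cast from 73.4, 101 and 71.7 CPM to 17.2, 29.1 and 23.5 CPM (log2 fold change -1.82, SE 0.23, edgeR adjusted p = 9.93e-05). On 129 it had 5.48 to 14.0 CPM in naive and 4.85 to 8.21 CPM in stimulated samples (-0.60, edgeR adjusted p = 0.285). The difference between the alleles passed with the replicate block alone (-1.27, edgeR adjusted p = 0.0155, and 0.307 without the block). Eno3, the muscle enolase, fell on 129 from 16, 27 and 9 reads to 2, 5 and 6 (log2 fold change -2.27, SE 0.55, edgeR adjusted p = 0.00973). Bpgm, which makes bisphosphoglycerate, did not pass, at -0.09 on 129 and 0.33 on Cast, though its Cast value passed without naive replicate 3 (0.45, edgeR adjusted p = 0.05) and with no filter on low counts (0.40, edgeR adjusted p = 0.038). The Cast value of Pfkm passed without naive replicate 1 (1.14, edgeR adjusted p = 0.0473).

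Among regulators of glycolytic flux, 2 of 10 tested genes rose and 3 fell on 129, and 3 of 9 rose and 3 fell on Cast, near the shares over all tested genes (28.2% higher and 27.0% lower on 129, 30.7% and 31.5% on Cast). Txnip, which lowers glucose uptake, had the steepest fall of the list. It went from 69.2, 45.4 and 70.2 CPM to 1.07, 10.9 and 5.89 CPM on 129 (log2 fold change -3.36, SE 0.63) and from 46.4, 27.3 and 54.2 to 5.01, 6.13 and 2.35 CPM on Cast (-3.23, SE 0.38). Pfkfb3 and Pfkfb4, which make the activator fructose 2,6-bisphosphate, fell by 0.64 and 1.11 on 129 and by 1.10 and 1.14 on Cast. The 129 call of Pfkfb3 was lost without naive replicate 1 or 3 or stimulated replicate 1 or 3 (-0.44 to -0.69). Tigar, a phosphatase that removes this activator, rose by 1.23 and 1.13. Hif1a, a subunit of the hypoxia-inducible factor, did not pass on either allele, at -0.41 (129, SE 0.53) and -0.18 (Cast, SE 0.14). Its 129 value rests on 6 to 19 reads per sample, beside 260 to 361 on Cast. X-linked Pfkfb1 had 10 to 24 reads per sample on 129 (0.46, edgeR adjusted p = 0.327) and 0 to 2 on Cast, where it was not tested.

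In the list of pyruvate and lactate genes, 10 of 15 tested rose and 3 fell on 129, and 8 of 13 rose and 2 fell on Cast, where 28.2% and 30.7% of all tested genes were called higher. With the replicate block Pdhb was also called higher on 129. The lactate carrier Slc16a1 rose from 18.8, 12.0 and 10.95 CPM to 251, 216 and 159 CPM on 129, a log2 fold of 3.90 (SE 0.27). On Cast it rose from 18.0, 23.3 and 29.5 CPM to 221, 211 and 268 CPM (3.31, SE 0.19). Dlat, the acetyltransferase of pyruvate dehydrogenase, rose by 1.47 on 129 and 1.21 on Cast. The phosphatase Pdp1, which activates that complex, fell by 1.27 and 1.44, and the kinase Pdk2, which inhibits it, fell by 2.71 and 2.32, all on the log2 scale.

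On 129 these values rest on few reads, 3 to 24 per sample for Dlat and 1 to 32 for Pdk2. Pdk2 also had few reads on Cast, at 1 to 12 per sample. The 129 call of Dlat was lost without naive replicate 1 or 3 or any stimulated replicate (1.2 to 1.52). That of Pdp1 was lost without naive replicate 1 or 3 or stimulated replicate 1 or 2 (-0.99 to -1.25), and that of Pdk2 without replicate 2 of either group (-2.38 and -2.40). X-linked Pdk3, another inhibiting kinase, rose from 30.8, 43.3 and 21.4 CPM to 91.0, 101 and 99.1 CPM on 129 (log2 fold change 1.60, SE 0.25), with 0 to 12 reads per sample on Cast. X-linked Pdha1, a subunit of the complex, rose by 0.52 on 129 (edgeR adjusted p = 0.04). That call was lost when any sample but stimulated replicate 1 was left out (0.32 to 0.56), and with the size factors of DESeq2 (0.50). The Cast shares of Pdk3 and Pdha1 stayed low, at 1.38% and 1.82% for Pdk3 and at 4.59% and 5.21% for Pdha1 in naive and stimulated samples.

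In the pentose phosphate pathway, 4 of 7 tested genes rose and none fell on each allele, where 28.2% (129) and 30.7% (Cast) of all tested genes were called higher. With the replicate block Pgls was also called lower on 129, and Pgls and Taldo1 were also called higher on Cast (6 of 7). The 129 value of Pgls rests on few reads, 10 to 34 per sample, beside 302 to 538 on Cast. Pgd, the second dehydrogenase of that pathway, rose by 1.15 on 129 and 0.85 on Cast, Rpia by 0.80 and 1.14, and Rpe by 0.89 and 0.84 (log2 scale). The 129 call of Rpe was lost without stimulated replicate 3 (0.76). X-linked G6pdx, the entry dehydrogenase, rose on 129 from 22.6, 25.2 and 21.9 CPM to 33.2, 36.9 and 37.1 CPM (0.62, SE 0.17, edgeR adjusted p = 0.0186). That call was lost without naive replicate 1 or 3 or stimulated replicate 3 (0.58 to 0.60). On Cast G6pdx had 1 to 8 reads per sample, with shares of 4.45% ± 2.51 and 5.87% ± 1.32 (SD, n = 3).

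Of the gluconeogenesis list, Pck2, the mitochondrial carboxykinase, rose by 1.07 on 129 (edgeR adjusted p = 0.0203) and by 0.86 on Cast (edgeR adjusted p = 0.0443). Stimulated replicate 2 was far above the others on both alleles, at 482 CPM against 223 and 266 on 129 and 339 CPM against 139 and 148 on Cast. The Cast call was lost with the replicate block (0.76, edgeR adjusted p = 0.205) and without naive replicate 1 (0.84), naive replicate 2 (0.78) or stimulated replicate 2 (0.35). The 129 call was lost without naive replicate 1 (1.05) or 2 (1.00). With no filter on low counts both calls were lost (1.10 on 129, edgeR adjusted p = 0.0549, and 0.93 on Cast, edgeR adjusted p = 0.191).

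In the citric acid cycle, 12 of 16 genes rose on 129 and 13 of 16 on Cast, and none fell, where 28.2% and 30.7% of all tested genes were called higher. With the replicate block 14 and 15 rose, with Sdha and Sdhc added on 129 and Dlst and Sdhb on Cast. Idh3a, a subunit of isocitrate dehydrogenase, rose from 32.0, 38.4 and 30.4 CPM to 142, 182 and 179 CPM on 129 (log2 fold change 2.32, SE 0.16) and by 2.30 on Cast. Sdhd, a membrane anchor of succinate dehydrogenase, rose by 1.72 and 1.83, citrate synthase (Cs) by 1.40 and 1.49, and Suclg2 by 1.14 and 1.25. X-linked Idh3g, which shares a complex with Idh3a, had 349 to 355 CPM in naive and 373 to 399 CPM in stimulated samples on 129 (0.14, edgeR adjusted p = 0.252). Its Cast share was 1.43% ± 0.585 and 1.26% ± 0.258 (SD, n = 3).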

How the data were processed

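Per the labels, total RNA of 6 samples was extracted with TRIzol and prepared with the Illumina TruSeq Stranded Total RNA LT kit. The deposited values are raw read counts per gene, 1 table for the 129S1/SvImJ and 1 for the CAST/EiJ annotation of each sample. The submitters' processing notes name STAR, featureCounts, Subread 2.0.0 and mm10 without their roles; how reads were assigned to alleles or strands is not given in the sources used here. Rows that name no gene (not aligned, no feature, ambiguous) were left out of library sizes. The first made up 78.5 to 84.2% of all reads, and no-feature reads 44.5 to 67.1% of the aligned ones. By group, no-feature reads were 62.6 to 67.1% in naive and 48.1 to 56.7% in stimulated samples on 129. On Cast they were 57.9 to 62.1% and 44.5 to 52.3%. The part of this difference in the comparisons was not tested.

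Each allele's counts were tested with edgeR 4.0.16 in R 4.3.3 (TMM, filterByExpr, robust quasi-likelihood fit, Benjamini-Hochberg over all tested genes), naive against stimulated, with an adjusted p under 0.05 as the threshold. SE is the log2 fold change over the square root of F. Allele by stimulation was fitted over genes matched by a name used once in each annotation and by chromosome (28374 matched), with 10 or more summed reads in 3 or more samples and 1 library size for both alleles. Cast shares were compared by two-sided exact permutation tests over samples. Depth limits single values through counting error, given as 95% Wilson intervals for shares. The scripts were tested on simulated data with known changes.

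Alternatives were DESeq2 1.42.0 and its size factors, other filters, a minimum log2 fold change of 1, named genes only, summed alleles, each sample left out and the replicate number as a block. Same-numbered naive and stimulated samples deviated together (Pearson r 0.56, 0.41 and 0.55 over 8363 genes on 129 and 0.29, 0.21 and 0.29 over 8445 genes on Cast; different numbers all negative), so the numbers pair the samples. The pairing comes from the data; the labels give the numbers only.

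Members and lists were chosen with earlier results of these data known. The text names all members, every tested glycolysis isozyme, and from each other list the X-linked genes and up to 4 genes with the largest mean change among those past the threshold in 1 direction on both alleles.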

Additional observations from a re-analysis of the deposited data

Results flagged for a closer look

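The change of Fh1, the fumarase of the citric acid cycle, differed between the alleles by the test of allele by stimulation. The Cast change minus the 129 change was 0.57 on the log2 scale (SE 0.079, edgeR adjusted p = 0.0311, and 3.24e-05 with the replicate block). Fh1 rose from 241, 248 and 259 CPM to 383, 420 and 394 CPM on 129 and from 150, 151 and 159 CPM to 352, 389 and 350 CPM on Cast. It was the gene called among the 57 tested carbohydrate genes outside the named members (1 of 57), where 0.917% of all tested genes were called, and it was named after its values were seen. With the replicate block 5 of 57 were called (Aldoc, Fh1, Pdk1, Pgls and Sdhb), near the 7.52% called over all tested genes in that fit. The call of Pgls rests on few 129 reads, as given above.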

How the results depend on the processing

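The members called were 8 of 9 on 129 in 12 of 14 alternatives and 7 in the other 2, with a minimum log2 fold change of 1 (Eno1 lost) and with summed alleles (Eno1 not matched). On Cast 7 or 8 of 8 were called in every alternative run. The replicate block changed no call among the members other than Slc2a1 on Cast (edgeR adjusted p = 0.0408). Against a minimum log2 fold change of 1, 2525 genes were called on 129 and 2828 on Cast, in place of 5842 and 6445. For allele by stimulation the replicate block called 779 genes in place of 95, and leaving out 1 sample called 14 to 26; no member was called in any of these. Directions changed for values near 0: Slc2a1 on 129 was 0.27 with summed alleles and -0.66 to 0.11 without 1 sample, Hk1 -0.14 to 0.22 on 129 and -0.064 to 0.15 on Cast, Bpgm on 129 -0.28 to 0.21, and Idh3g on Cast 0.0076 without a filter and -0.25 to 0.35 without 1 sample. The Cast minus 129 difference without 1 sample was -0.17 to 0.0033 for Hk2, -0.067 to 0.045 for Aldoa, -0.12 to 0.0045 for Tpi1 and -0.35 to 0.12 for Pgam1; with each allele scaled by its own library, Aldoa was at 0.041 and Pgam1 at 0.014. The share difference of the X rows was 0.24 points after division by the autosomal ratio, 0.35 with the replicate block, and -1.67 to 2.88 without 1 sample; that of the Eno1 and Eno1b rows was 2.68, 2.66 and -1.57 to 7.22. The causes of these moves were not tested. No share of Pgk1 under its own name was computed, since no row carries that name.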

Other observations

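Succinate dehydrogenase passes electrons from the citric acid cycle to the respiratory chain. Its subunits Sdhb and Sdhc had allele shares that differed between replicate numbers in both groups. They were named after their values were seen. The Cast share of Sdhb (chromosome 4) was 96.1%, 92.1% and 38.7% in naive and 96.8%, 98.4% and 52.3% in stimulated replicates 1 to 3, with 9, 22 and 171 and then 13, 9 and 244 reads on 129. The Cast share of Sdhc (chromosome 1) was 50.9%, 98.2% and 43.8% in naive and 50.1%, 98.4% and 49.9% in stimulated replicates, with 7 and 19 reads on 129 in replicate 2. The 20 matched genes around Sdhb had a median Cast share of 54.9%, 60.9% and 49.6% in naive and 63.1%, 60.7% and 49.5% in stimulated samples. Those around Sdhc had 53.2%, 63.0% and 52.4% in naive and 52.3%, 54.8% and 51.2% in stimulated samples. Such differences were not confined to these subunits. In naive replicates 1 to 3, Pdhb had 67, 47 and 117 reads on 129 and 199, 202 and 106 on Cast.

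Pdk1, a kinase that inhibits pyruvate dehydrogenase, did not pass on either allele (-0.25 on 129 and 0.49 on Cast, edgeR adjusted p = 0.537 and 0.277). The difference of its changes between alleles was 0.66 on the log2 scale (Cast minus 129, edgeR adjusted p = 0.124), or 0.69 with the replicate block (edgeR adjusted p = 0.000129).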
